A study of Caenorhabditis elegans with 10 samples.

Results

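The genes bli-1 (WBGene00000251) and bli-2 (WBGene00000252) encode collagens of the struts of the adult cuticle of the nematode Caenorhabditis elegans. They are 2 of the 20182 genes in the deposited count table. They were chosen by these same values, because their footprint counts were low in the early libraries and formed a sharp pulse in the last ones, so their time courses are given as a description, with no test. Ribosome footprinting sequences the short pieces of mRNA that are protected inside a ribosome, here cut from a gel after purification of monosomes. The worms were N2, the standard wild-type strain, hatched overnight, plated as first-stage larvae on NA22 bacteria and harvested whole at 18, 20, 22, 24, 26, 28, 30, 32, 34 and 36 h. No worms were mutant or treated, and each time has 1 library, a population of worms without a replicate. Totals ran from 16723638 to 33696423 counts per library, so that 1 count was worth 0.0297 to 0.0598 CPM (counts per 1000000 counts of the library).

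The worm cuticle is a collagen exoskeleton that the epidermis builds anew at each moult. Cuticle collagens are hydroxylated and assembled into trimers in the endoplasmic reticulum, secreted, trimmed by proteases and cross-linked through tyrosines. The adult cuticle has a fluid-filled medial layer crossed by columns, the struts, that tie the outer to the inner layer. Worms without working bli-1 or bli-2 lack normal struts, and fluid lifts the outer layer into the blisters that gave the genes their name.

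Both genes had a steep pulse that rose by the largest fold between 30 h and 32 h, was highest at 34 h and had largely passed at 36 h. For bli-1 a smaller rise, from 0.472 to 4.93 CPM, came before it between 28 h and 30 h. Footprints of bli-1 from 18 h to 36 h stood at 0.399, 0.463, 0.0828, 0.957, 3.68, 0.472, 4.93, 391, 4764 and 635 CPM. Those of bli-2 stood at 2.10, 5.14, 0.580, 11.4, 58.2, 8.59, 3.25, 243, 2905 and 625 CPM. The 34 h library was far above all others for both, and the libraries at 32 h and 36 h were above all earlier ones. At 34 h bli-1 ranked 12th and bli-2 ranked 34th among all genes by counts. At 22 h, the lowest library of both, bli-1 had 2 counts and bli-2 had 14. The 34 h library held 82.1% of the CPM of bli-1 summed over the 10 libraries and 75.2% of that of bli-2. Together the genes took 0.767% of all counts at 34 h, with 0.0634% at 32 h and 0.126% at 36 h. In whole worms, fewer cells of a type and less RNA per cell cannot be told apart, and footprints alone do not separate the amount of an mRNA from its translation.

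**Figure D1:**
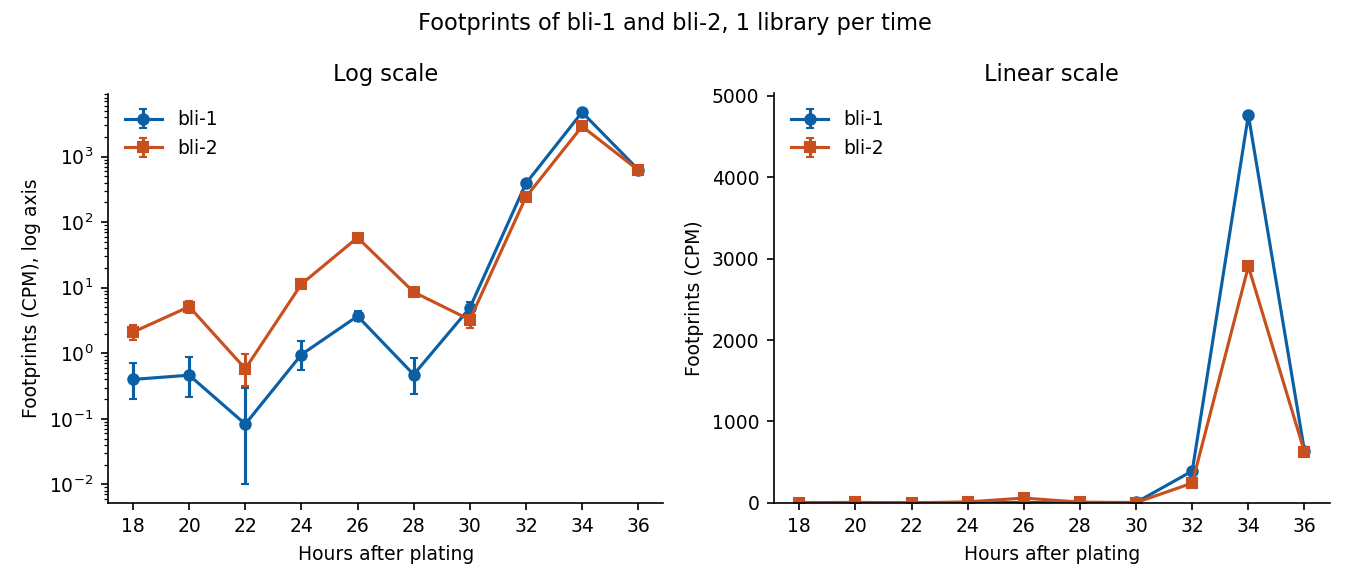
Footprints of bli-1 and bli-2 in CPM against hours after plating, on a log axis and on a linear axis. Points are single libraries and bars are exact 95% Poisson intervals, which cover counting error only. Both genes were highest at 34 h (4764 CPM for bli-1, 2905 CPM for bli-2), and bli-2 had an earlier, smaller peak of 58.2 CPM at 26 h.

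The earlier cycles were not empty, and bli-2 in particular was not silent. Moults follow each other about every 8 h in this time course, so 18, 26 and 34 h stand at roughly the same place in 3 successive cycles. The match is not exact for all genes. The body-shape collagen gene sqt-3 stood at 2545 and 6607 CPM at 18 h and 20 h, but at 6761 and 2902 CPM at 26 h and 28 h. In the same libraries the furrow collagen gene dpy-7 stood at 893 and 147 CPM, then at 704 and 33.5 CPM. Folds between cycles carry any such offset. At 26 h bli-2 had 1961 counts and 58.2 CPM (exact 95% Poisson interval 55.6 to 60.8). This was 100.4-fold its level at 22 h (exact 95% interval 59.7 to 184, as for all folds that follow). By 28 h it was 6.78-fold lower than at 26 h (5.86 to 7.88). The same small pulse appeared in bli-1 with 124 counts and 3.68 CPM at 26 h (3.06 to 4.39), 44.4-fold its level at 22 h (12.05 to 371). At 28 h bli-1 was 7.79-fold lower than at 26 h (4.21 to 16.01). All intervals cover counting error only, since reads from PCR without molecular identifiers are not independent molecules.

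The step from each cycle to the next differed in size between the genes. For bli-1 the level at 26 h was 9.23-fold that at 18 h (4.98 to 18.96), and the level at 34 h was 1295-fold that at 26 h (1086 to 1557). For bli-2 the same steps were 27.7-fold (21.3 to 36.6) and 49.9-fold (47.7 to 52.2). On a log2 scale most of the gain of bli-1 thus fell in the last step (3.21, then 10.34 log2). For bli-2 both steps were large on this scale (4.79, then 5.64 log2). In CPM most of the gain of both genes fell in the last step. At the next place in the cycle, the level at 36 h was 1345-fold that at 28 h for bli-1 (752 to 2696) and 72.8-fold for bli-2 (63.3 to 84.1). The level at 28 h was 1.02-fold that at 20 h for bli-1 (0.385 to 2.79), an interval that holds equality, and 1.67-fold for bli-2 (1.31 to 2.15).

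Within the last cycle the genes climbed in parallel and declined at different rates. At 32 h bli-1 was 79.3-fold its level at 30 h (64.1 to 99.4) and bli-2 was 74.7-fold (57.4 to 99.03), with overlapping intervals. At 34 h bli-1 was 12.2-fold its level at 32 h (11.9 to 12.5) and bli-2 was 11.98-fold (11.6 to 12.3). At 36 h bli-1 was 7.50-fold lower than at 34 h (7.36 to 7.64) and bli-2 was 4.65-fold lower (4.56 to 4.74), intervals that do not overlap. From the highest library to the lowest, the order for bli-1 was 34, 36, 32, 30, 26, 24, 28, 20, 18 and 22 h. For bli-2 it was 34, 36, 32, 26, 24, 28, 20, 30, 18 and 22 h. The orders differ in the place of 30 h, which was above 26 h for bli-1 and below 20 h for bli-2. Neighbours in the order of bli-1 that did not differ beyond counting error were 24 h with 28 h, 28 h with 20 h, and 20 h with 18 h, and bli-2 had no such neighbours. The spread between worm populations of 1 time is unknown without replicates.

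The balance between the genes turned over between 28 h and 30 h, ahead of the steep rise. From 18 h to 28 h bli-2 gave 84.1%, 91.7%, 87.5%, 92.2%, 94.1% and 94.8% of the counts of both genes. From 30 h to 36 h it gave 39.7%, 38.3%, 37.9% and 49.6%. The first 6 libraries all lay above the last 4. The turn rests on small counts on both sides: at 30 h bli-2 had 56 counts and bli-1 had 85 (exact 95% binomial interval of the bli-2 share 31.6% to 48.3%), and at 28 h they had 200 and 11 (90.9% to 97.4%). At 30 h bli-1 was 10.4-fold its level at 28 h (5.55 to 21.7), while bli-2 was 2.65-fold lower than at 28 h (1.96 to 3.62). The 30 h library is thus the one in which the 2 genes moved in opposite directions.

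**Figure D2:**
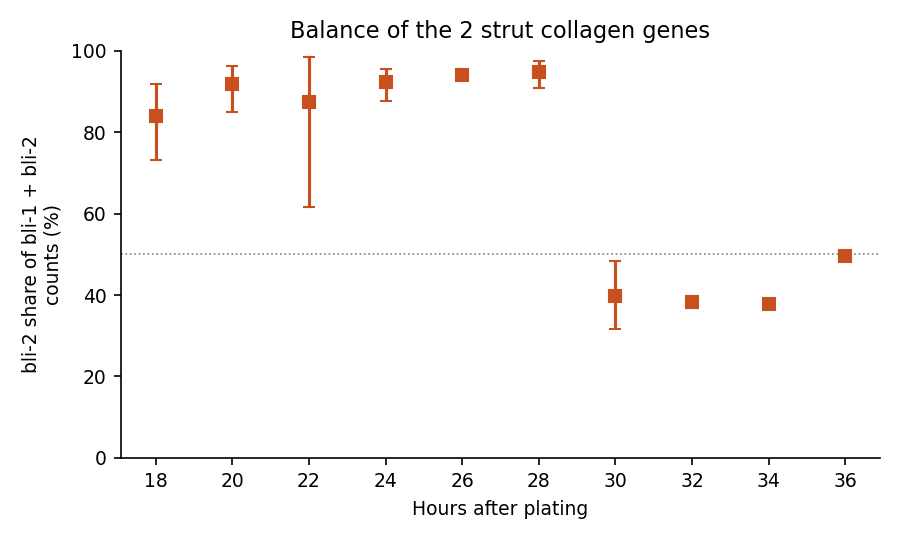
Share of bli-2 in the counts of bli-1 and bli-2 together, in percent, against hours after plating, with exact 95% binomial intervals that cover counting error only. The dotted line marks equal counts. Libraries from 18 h to 28 h lie between 84.1% and 94.8%, and those from 30 h to 36 h between 37.9% and 49.6%.

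The genes differ in length, and per length their order at the peak is the other way round. In the Ensembl annotation of assembly WBcel235 both genes lie on chromosome II, on opposite strands, each with 1 transcript. The coding sequence of bli-1 has 2847 bases with its stop codon, in a transcript of 5 exons, and gives 948 amino acids. That of bli-2 has 936 bases, in a transcript of 2 exons, and gives 311 amino acids. Per kilobase of coding sequence the level at 34 h was 1673 CPM for bli-1 and 3103 CPM for bli-2, so bli-2 was 1.85-fold higher on this scale. The per-kilobase ratio of bli-2 to bli-1 was 16.04, 33.8, 21.3, 36.1, 48.1 and 55.3 from 18 h to 28 h. From 30 h to 36 h it was 2.004, 1.89, 1.85 and 2.99. Per length, bli-2 was therefore the higher gene in all 10 libraries, by a much smaller factor in the last 4.

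Each gene lies within the span of a gene on the opposite strand, and neither of those had the pulse. The gene around bli-1 is dph-2 (WBGene00007488), with 7 exon bases in common, and its level stayed between 16.9 and 22.5 CPM. The gene around bli-2 is zyg-1 (WBGene00006988), a kinase gene of centriole duplication with no exon base in common, and its level stayed between 4.15 and 6.62 CPM. The sources used here do not say whether counting took strand into account, or what was done with reads that match more than one collagen gene.

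The strut collagens were set beside the other genes with a final pulse. Of the 13958 genes tested, 118 (0.845%) reached at least 10 CPM at 34 h or 36 h and at least 8 times their highest level between 18 h and 32 h. That bli-1 and bli-2 are among them follows from how they were chosen, and their fall at 36 h is part of the sharp pulse that chose them, so both are given as a description. Of the 116 others, 113 were highest at 36 h and 3 at 34 h, namely E01G4.6, F58E6.13 and col-79. The level at 36 h was a median of 2.73 times that at 34 h in the 116, with a range of 0.319 to 86.5. For bli-1 this ratio was 0.133 and for bli-2 it was 0.215, the lowest and the next lowest of the 118. This place holds only within the 8-fold limit: Y43D4A.5, at 5.50-fold, had a ratio of 0.103, and col-110, at 6.01-fold, had 0.247. Of 26 genes with a col name among the 116, 25 were highest at 36 h. By level at 34 h bli-1 stood 2nd of the 118 and bli-2 stood 6th, behind E01G4.6 (4893 CPM) in first place. The ratios of bli-1 and bli-2 by which they entered this group, 12.2 and 11.98, have the 32 h library as their base, where both had already risen. Without the 32 h library the ratios were 967 for bli-1 and 49.9 for bli-2, and without the 34 h library 1.63 and 2.58.

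**Figure D3:**
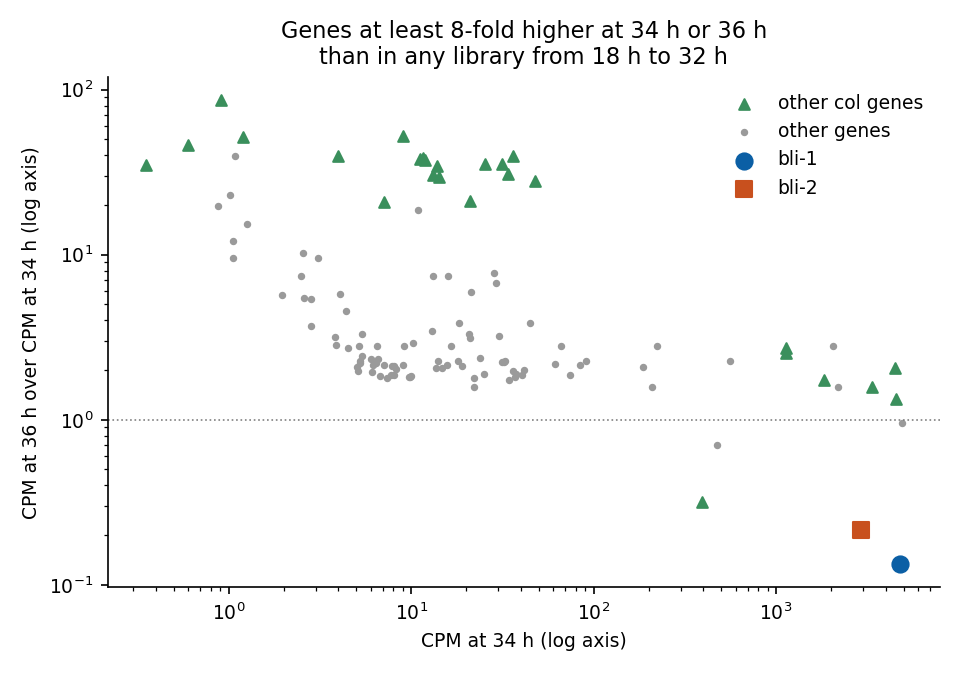
Genes that reached at least 10 CPM at 34 h or 36 h and at least 8 times their highest level from 18 h to 32 h. The x axis is CPM at 34 h (log scale) and the y axis the ratio of CPM at 36 h to CPM at 34 h (log scale); triangles are col genes, dots other genes, the circle bli-1 and the square bli-2. Among the genes plotted, bli-1 and bli-2 have the lowest ratios, 0.133 and 0.215, and 113 of the 116 others lie above 1.

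Other collagens known from the adult stage were still climbing when the strut collagens declined. The list held col-7, col-19, col-38, col-49, col-62, col-63, col-120 and rol-1, whose mutants roll as adults, and all 8 were highest at 36 h. For col-62 the climb was not particular to the last cycle, since it stood at 29.0, 42.0 and 44.3 CPM at 20, 28 and 36 h. At 32, 34 and 36 h rol-1 (WBGene00004394) stood at 37.8, 2056 and 5723 CPM. In the same libraries col-63 (WBGene00000639) stood at 17.6, 1126 and 2870 CPM, and col-38 (WBGene00000615) at 213, 4565 and 6130 CPM. At 32 h bli-1 had reached 8.21% and bli-2 8.35% of their own highest level, against 0.0444% to 3.47% in the 7 adult-stage collagens tested. The latter were highest in the last library, so these shares do not show an earlier start in the strut collagens. From 30 h to 32 h col-63 rose from 0.232 to 17.6 CPM, rol-1 from 0.812 to 37.8 and col-38 from 5.97 to 213. Over the same step col-49 rose from 0.986 to 32.7 CPM and col-19 from 1.57 to 3.03 CPM. In col-62 (4.35 to 1.45 CPM) and col-120 (0.638 to 0.589 CPM) there was no rise. Of the 116 other genes past the 8-fold limit, 29 rose at least 8-fold in this step (floor of 3 counts). A small peak at 26 h was also present in col-38 (88.9 CPM) and col-49 (15.5 CPM), with 3.93 and 0.331 CPM at 22 h. It was less sharp than that of bli-2, since at 28 h they still stood at 42.2 and 7.17 CPM. At 20 h col-38 already had 69.2 CPM.

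To ask which genes differed between the last cycle and the earlier ones, edgeR's quasi-likelihood test was used. It set the libraries at 34 h and 36 h against those at roughly the same place in earlier cycles. A call needed a Benjamini-Hochberg adjusted p under 0.05 over all genes tested and a change of at least 1 log2. In all, 802 genes (5.75%) were called higher in the last cycle and 81 (0.58%) lower, with a median change of -0.02 log2. Of the 7 adult-stage collagens tested, 5 rose and none fell, with a median of 8.61 log2. The change was 12.82 ± 1.68 log2 (SE) for col-63 (adjusted p = 0.0414) and 11.72 ± 2.11 log2 for rol-1 (adjusted p = 0.0455). For col-19 it was 3.97 ± 1.76 log2, which missed the threshold (adjusted p = 0.168), and col-7 was too low to test, at no more than 1.42 CPM. For bli-1 and bli-2 no test is given, since this contrast chose them. The gene col-63 entered the test only with the help of the 34 h and 36 h libraries, where it was high. Its call is therefore a description as well. The calls of this test are fragile: 873 of the 883 had an adjusted p of at least 0.04. With the library at 18, 20, 22, 26, 28, 30 or 36 h left out no gene was called higher, although 1014 to 2833 genes had an unadjusted p under 0.05, and without the 34 h library 1 gene was.

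Furrow collagens, which line the circular grooves of the cuticle, rose in the same interval as the strut collagens but did so in each cycle. At 30, 32, 34 and 36 h dpy-7 (WBGene00001069) stood at 16.99, 454, 538 and 22.7 CPM. At 18 h and 26 h it stood at 893 and 704 CPM, where bli-1 had 0.399 and 3.68 CPM. Within the last cycle 5 of the 6 furrow genes were higher at 34 h than at 32 h, as bli-1 and bli-2 were, the exception being dpy-9 with 361 CPM at 34 h and 364 CPM at 32 h. The decline was steeper in the furrow genes, whose level at 36 h was 0.0358 to 0.0422 times that at 34 h in all 6, against 0.133 for bli-1 and 0.215 for bli-2. An 8 h oscillation was tested with edgeR as a cosine and a sine beside linear time, and 3174 genes (22.7%) were called at 1 log2 or more from peak to trough. All 6 furrow collagens were called, with a median of 6.43 log2 against 0.59 log2 over all genes tested, and none was called in the last cycle. Of the 7 adult-stage collagens tested, 3 were called oscillating, among them col-62 by 5.13 log2.

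Collagens of body shape also returned in each cycle. Of 11 tested, 9 oscillated, against 22.7% of all genes tested, with a median of 5.10 log2, and none was called in the last cycle. At 18, 26 and 34 h sqt-3 (WBGene00005018) stood at 2545, 6761 and 6251 CPM. In the same libraries bli-1 stood at 0.399, 3.68 and 4764 CPM. The roller gene rol-6 (WBGene00004397) stood at 546, 1472 and 904 CPM in those libraries.

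**Figure D4:**
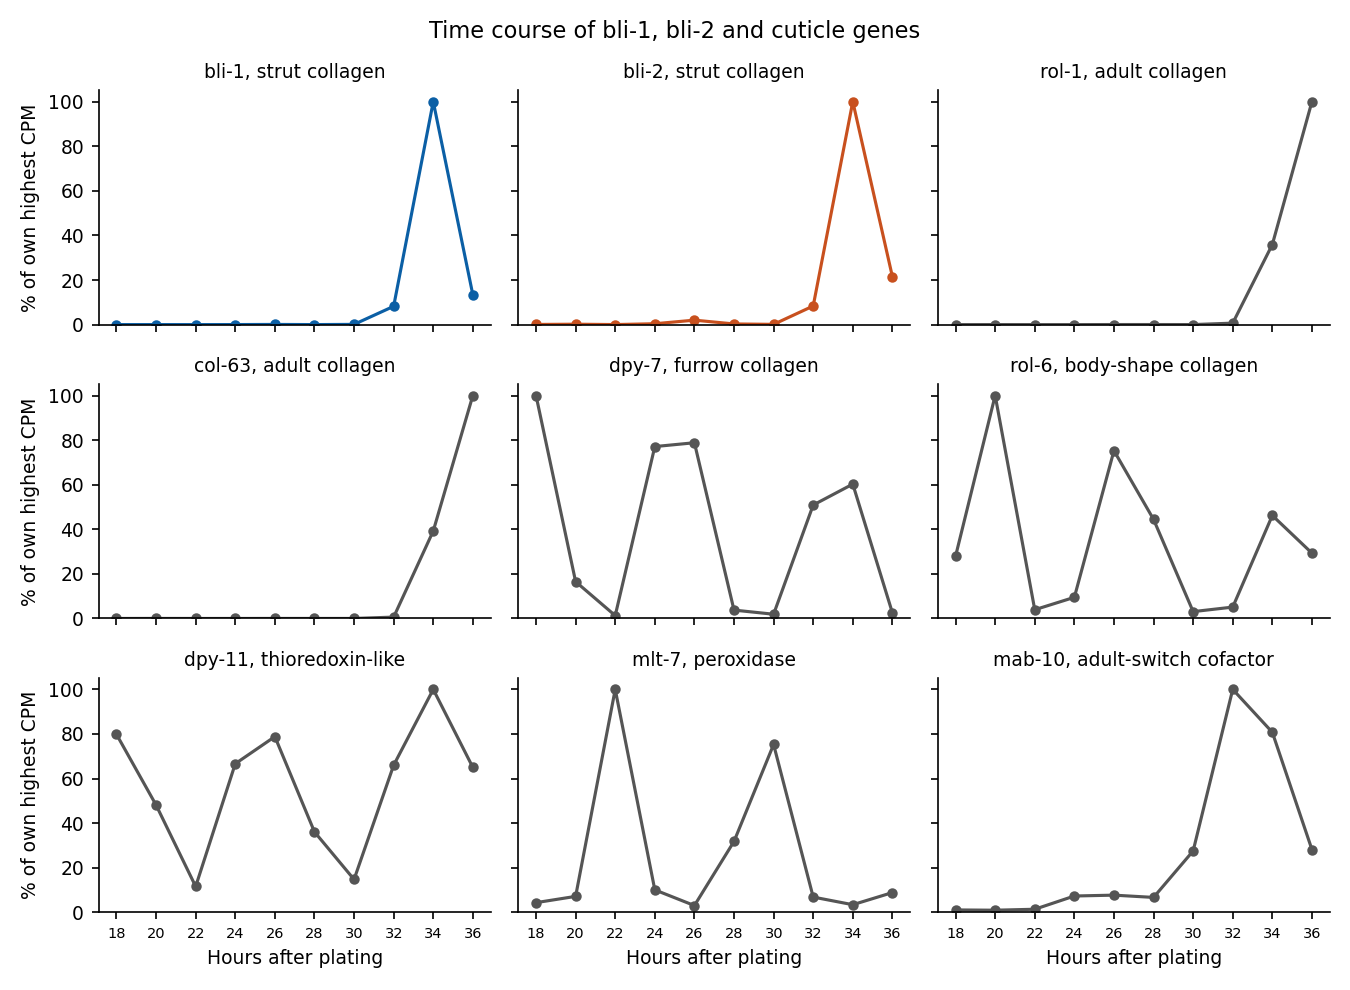
Footprints of bli-1, bli-2 and 7 other genes (rol-1, col-63, dpy-7, rol-6, dpy-11, mlt-7 and mab-10) against hours after plating, each as a percent of its own highest CPM. The strut collagens have 1 narrow peak at 34 h, rol-1 and col-63 are highest at 36 h, and dpy-7, rol-6, dpy-11 and mlt-7 come back in each cycle.

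Genes that fold, hydroxylate or trim collagens mostly moved with the cycle. Of 18 tested, 13 oscillated (median 1.74 log2), against 22.7% of all genes tested. In the last cycle 1 was called higher and none lower (median 0.35 log2), against 5.75% and 0.58% of all genes tested. The thioredoxin-like gene dpy-11 (WBGene00001073) oscillated by 2.75 log2 (adjusted p = 0.0127), a call lost without the 22 h or the 30 h library. At 32, 34 and 36 h it stood at 842, 1276 and 829 CPM. Of the 18 genes 6 were highest at 34 h, dpy-11 among them, against 602 of all 13958 genes tested. The levels of these 6 at 34 h were only 1.03 to 1.25 times their highest from 18 h to 32 h. The other 12 were highest in other libraries, such as pdi-2 at 18 h, fkb-4 at 28 h and dpy-18 at 36 h. The prolyl 4-hydroxylase gene phy-2 (WBGene00004025) oscillated by 2.49 log2 (adjusted p = 0.00193) and was also highest at 34 h, with 405 CPM. The gene called higher was phy-3 (WBGene00004026), another prolyl 4-hydroxylase, by 6.17 ± 1.37 log2 (adjusted p = 0.0485), at 4.30 CPM or less. It reached the level needed for testing only at 32, 34 and 36 h (1.04, 2.53 and 4.30 CPM), so its call is a description. Of 9 tested genes of export from the endoplasmic reticulum, 1 oscillated, against 22.7% of all genes tested. This was the coat gene sec-24.1, by 1.10 log2 (adjusted p = 0.00277). None of the 9 was called in the last cycle.

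The 3 other blister genes tested did not have the pulse of bli-1 and bli-2. Of the 3, 1 oscillated, against 22.7% of all genes tested. None of the 3 was called in the last cycle, where 5.75% of all genes tested were called higher and 0.58% lower. The dual oxidase gene bli-3 (WBGene00000253), which acts in tyrosine cross-linking, lay between 43.6 and 73.0 CPM over the 10 libraries. The convertase gene bli-4 (WBGene00000254), which cleaves collagen precursors, lay between 77.4 and 157 CPM and was highest at 34 h. The protease inhibitor gene bli-5 (WBGene00000255) oscillated by 3.19 log2 (adjusted p = 0.00297), with 2.36 to 28.0 CPM, and had more at 36 h (19.7 CPM) than at 34 h (11.02 CPM). A further gene of the name, bli-6, was not analysed here.

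Of 5 cross-linking genes tested, 3 oscillated and 1 was called higher in the last cycle. The shares over all genes tested were 22.7% and 5.75%. The peroxidase gene mlt-7 (WBGene00022743) oscillated by 4.40 log2 (adjusted p = 0.00429), with 741 CPM at 22 h and 558 CPM at 30 h. In the 34 h library, where bli-1 and bli-2 were highest, mlt-7 was low at 25.4 CPM, and it had 65.7 CPM at 36 h. The peroxidase gene skpo-1 (WBGene00009897) rose by 3.62 ± 0.56 log2 in the last cycle (adjusted p = 0.0440). Its level was 2.49 CPM at 34 h and 18.4 CPM at 36 h, against 0.317 to 2.03 CPM up to 32 h.

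By edgeR, 0 of 11 regulators of the switch from larva to adult passed the last-cycle test in either direction. Their median change was -1.21 log2. Over all genes tested, 5.75% were called higher and 0.58% lower, so 0 of 11 does not set them apart. The zinc finger gene lin-29 (WBGene00003015), which starts adult programs in the epidermis, stood at 10.96, 24.5, 27.7 and 11.03 CPM at 30, 32, 34 and 36 h. Its change was 2.23 ± 1.34 log2 (adjusted p = 0.279). The gene of its cofactor, mab-10 (WBGene00003107), stood at 7.42, 26.9, 21.8 and 7.59 CPM in those libraries. The change of mab-10 was 3.80 ± 1.49 log2 (adjusted p = 0.135). These were the only 2 of the 11 with a positive change. The other 9 (lin-14, lin-28, lin-41, lin-42, lin-46, hbl-1, dre-1, daf-12 and din-1) had negative ones, from -0.07 log2 in lin-28 to -3.94 log2 in lin-46. Of 10 transcription factors of the moulting cycle, 4 oscillated, against 22.7% of all genes tested. In the last cycle none was called higher and 1 was called lower. This was the nuclear receptor gene nhr-25 (WBGene00003623), by -2.65 ± 0.54 log2 (adjusted p = 0.0469), with 3.47 and 7.94 CPM at 34 h and 36 h, against 45.9 and 38.3 CPM at 26 h and 28 h. The level of nhr-25 was already low at 32 h, with 4.26 CPM, against 12.7 CPM at 24 h.

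Genes with a time course like that of bli-2 were ranked by Pearson's r of log2(CPM + 1) over the 10 libraries, among 9286 tested genes with at least 10 CPM in some library. The r values describe libraries that all genes share, and depth is common to them. The nearest gene was the collagen gene col-110 (WBGene00000684, r = 0.975). It had both pulses of bli-2: at 22, 26 and 30 h it stood at 0.662, 38.8 and 4.29 CPM, and at 32, 34 and 36 h at 99.7, 599 and 148 CPM. After it came Y40H7A.10 (0.965), clec-48 (0.949), wago-4 (0.949), E01G4.6 (0.946), col-79 (0.944), cutl-18 (0.943), col-71 (0.940), Y43D4A.5 (0.938) and ttr-12 (0.938). A fall at 36 h close to that of bli-2 (0.215 times the 34 h level) was shared by some of the 10: the ratio was 0.103 for Y43D4A.5 (WBGene00012791), 0.247 for col-110 and 0.288 for cutl-18. For wago-4, col-71 and ttr-12 it was above 1. With r = 0.944, bli-1 stood 6th for likeness to bli-2.

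For bli-1 the 10 nearest were K10H10.7 (0.981), the yolk protein gene vit-1 (0.981), F54C8.1 (0.979), irld-14 (0.977), F21A3.4 (0.977), T13F3.8 (0.976), M02D8.2 (0.975), tag-344 (0.975), nep-23 (0.974) and C18A3.7 (0.974). They were much lower than bli-1 at 34 h, with vit-1 the highest at 146 CPM. No col gene was among them, and bli-2 stood only 343rd. This list depends on the measure: with Spearman's rho none of the 10 was kept, with log2(CPM + 0.1) 2 were, and without the 36 h library none. The list of bli-2 kept 3 with Spearman's rho, 8 with log2(CPM + 0.1), and 4 without the 26 h library.

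**Figure D5:**
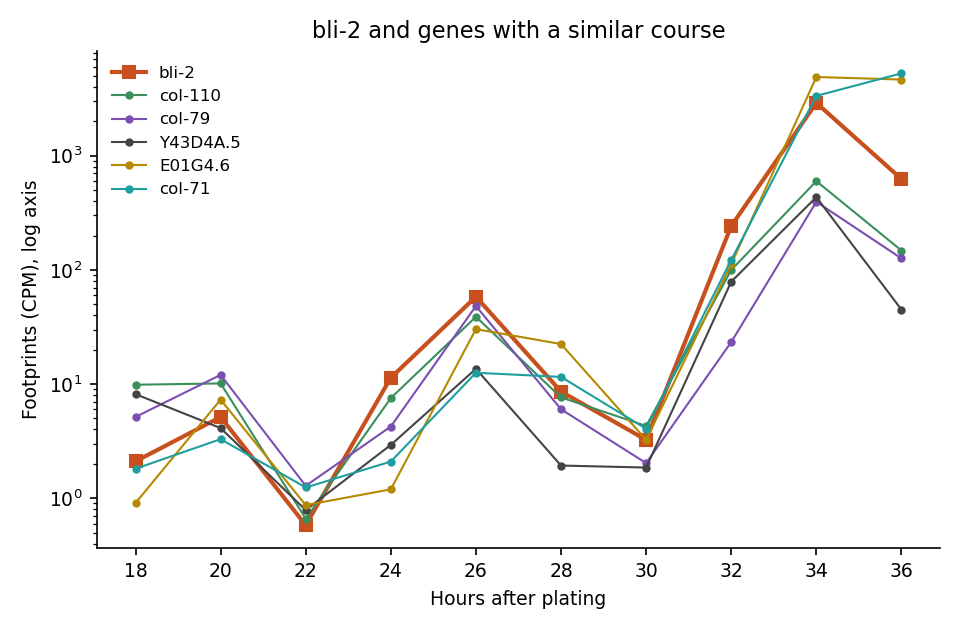
Footprints in CPM (log axis) against hours after plating for bli-2 and the 5 of its 10 most similar genes with at least 100 CPM at 34 h. Each of the 6 genes has a small peak at 26 h, and all but col-71 (5269 CPM at 36 h, 3343 CPM at 34 h) are highest at 34 h.

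Genes of other tissues moved in the same libraries. Epidermis markers, from the tissue that makes cuticle collagens, summed to 4346 CPM at 34 h and 1791 CPM at 36 h, against 1386 to 4876 CPM up to 32 h, with 0 of 8 called in the last cycle. Sperm markers summed to 137 CPM at 34 h and 198 CPM at 36 h, against 0.0363 to 46.4 CPM up to 32 h, with 3 of 5 called higher. For yolk protein genes the sums at 34 h and 36 h were 240.2 and 539 CPM, against 0.925 to 119.1 CPM up to 32 h, with all 3 tested called higher. Of the called sperm and yolk genes, msp-3, spe-11, vit-2 and vit-6 entered the test only with the help of the 34 h and 36 h libraries. Their calls are therefore a description. For germline markers they were 948 and 1053 CPM, against 306 to 918 CPM up to 32 h, with 0 of 5 called. Other tissues had 0 of 5 markers called in each, where 5.75% of all genes tested were called higher and 0.58% lower. On library totals, sums of pharyngeal muscle and neuron markers lay below their earlier range at both 34 h and 36 h. Those of intestine markers did so only at 36 h, and those of body-wall muscle markers only at 34 h. All sums rest on library totals without TMM normalization factors, which were lowest at 34 h and 36 h (0.858 and 0.829). Division by these factors raises the sums at 34 h and 36 h against the earlier ones. The places below the earlier range at 34 h therefore hold on library totals only. Pharyngeal muscle markers stood at 352 and 292 CPM at 34 h and 36 h, against 392 to 1201 CPM up to 32 h, and neuron markers at 164 and 139 CPM, against 178 to 301 CPM. Intestine markers stood at 5689 and 3672 CPM, against 5554 to 9672 CPM, and body-wall muscle markers at 9520 and 11071 CPM, against 9566 to 15647 CPM. The part of these tissues in the pulse of bli-1 and bli-2 was not tested.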

How the data were processed

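Whole-worm monosome footprints were counted per gene in 10 libraries, 1 per time. The deposited counts are raw whole numbers, and Bowtie is the tool named by the submitters' processing notes; its version, the genome build, the annotation and the counting rule were not stated there. The deposited log2 values equal log2 of the authors' counts scaled to the mean library total with 8 added, to within 5e-05, and served as an alternative. CPM used all counts of a library. Intervals are exact (Poisson, or Clopper-Pearson for ratios and shares) at 95%. Genes with at least 10 counts in the median library in 3 libraries were tested (13958) with edgeR 4.0.16 (R 4.3.3, TMM), on 5 residual degrees of freedom for the last cycle and 6 for oscillation. With 1 library per time, these p-values rest on neighbouring times and cycles as the spread. Each SE was worked back from the test, as the size of the log2 change over the square root of its F statistic. The scripts were tested on simulated data. Alternatives used DESeq2 1.42.0 and limma 3.58.1. A floor of 3 counts per library was used in late ratios. Named genes were bli-1, bli-2, the 10 most like each, and genes of 17 lists, called ones first; F58E6.13 was named after its values were seen. Members and lists were chosen with earlier results of these data known. Symbols came from the gene name table supplied with the reference (18778 of 20182 IDs) and gene models from Ensembl 115 (19513 IDs).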

Additional observations from a re-analysis of the deposited data

How the results depend on the processing

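The late ratio was 12.2 for bli-1 and 11.98 for bli-2. With median-ratio factors it was 14.19 and 13.9, and with TMM sizes 14.2 and 13.97. Leaving out 1 library gave 1.63 (without 34 h) to 967 (without 32 h) for bli-1 and 2.58 to 49.9 for bli-2 in the same libraries. Genes past the 8-fold limit numbered 118, with 293 at 4-fold and 55 at 16-fold. Genes called higher in the last cycle numbered 802, with 43 at a mean of at least 50 counts, 1600 by DESeq2 and 1509 with the 3 cycles as a factor. Leaving out 1 library gave 0 to 1337. Genes called lower numbered 81, with 285 on total counts alone, 7 at a mean of at least 50 counts, 430 by DESeq2, 183 by limma, 177 with the 3 cycles as a factor and 185 with no minimum size. Leaving out 1 library gave 0 to 127. Oscillating genes numbered 3174, with 4796 at no minimum size and 2479 to 3119 when 1 library was left out. Of the 10 genes most like bli-1, 0 were kept with Spearman's rho, 2 with log2(CPM + 0.1), and 0 to 9 without 1 library. For bli-2, 3 were kept with Spearman's rho, 8 with log2(CPM + 0.1), and 4 to 9 without 1 library. No direction was reversed under any alternative run. The cause of these changes was not tested. No paired analysis was possible because each time has 1 library. Depth limits bli-1 most at 22 h, with 2 counts (0.0100 to 0.299 CPM).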
